A study of Mus musculus with 9 samples.

Results

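Glucose is broken down to pyruvate by the enzymes of glycolysis, and the pentose phosphate pathway branches off at glucose-6-phosphate. The expression of 32 listed genes of both pathways was examined in mouse alveolar macrophages with and without Vhl. The list holds 3 glucose transporters, 19 genes of glycolysis and lactate formation, 3 enzymes that set the level of fructose-2,6-bisphosphate and 7 pentose phosphate enzymes. They were chosen by name, with earlier results of these data known, and 31 of the 32 were measured among the 12003 genes of the table. Ldhb, the other lactate dehydrogenase chain, was not analysed here.

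The macrophages came from bronchoalveolar lavage of untreated mice 8 to 12 weeks old on a C57BL/6 background, and each library was made from a pool of 5 to 7 mice matched for sex. Floxed controls were Vhl(flox/flox) / CD11c (+/+) and carried no Cre recombinase. Cre controls, Vhl(+/+) / CD11c(cre/+), carried Cre with wild-type Vhl, and knockouts, Vhl(flox/flox) / CD11c(cre/+), carried both. Each genotype had 3 pools. Cre was driven by the CD11c promoter, which is also active in dendritic cells, and lavage cells were taken by CD11c beads, so dendritic cells can be in the samples. The p-values below measure the spread between pools.

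Glycolysis yields ATP without oxygen, and lactate dehydrogenase restores the NAD+ that it consumes. The oxidative arm of the pentose phosphate pathway makes NADPH, and its non-oxidative arm interconverts ribose-5-phosphate and glycolytic sugars. VHL is the substrate receptor of a ubiquitin ligase through which the alpha chains of hypoxia-inducible factors are degraded, and many glycolytic genes are textbook targets of these factors. Alveolar macrophages live in air spaces rich in oxygen and are known for oxidative use of lipids.

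Vhl (ENSMUSG00000033933, chr6:113623959-113631633, GRCm38) was measured first, as the targeted gene. It stood at 21.0, 14.9 and 18.4 normalized reads in floxed controls, 24.0, 21.9 and 25.3 in Cre controls and 2.02, 2.14 and 2.52 in knockouts (log2 fold change -2.75, SE 0.110, adjusted p = 6.06e-08 by limma), and the knockout libraries lay below all 6 controls. Normalized reads are reads scaled to the size of the library and not to gene length, and the libraries held 18201116 to 25861174 reads. Values are given in the order of library numbers 1 to 3, and means are ± SD with n = 3 pools per genotype and n = 6 for both controls together. Log2 fold changes are differences of log2(normalized reads + 1) from a limma fit over all 12003 genes, and a gene was called at a Benjamini-Hochberg adjusted p under 0.05. Of the 10 alveolar macrophage markers, all were detected in every library, 4 were called higher and 3 lower in knockouts, and their summed level was 24400 to 27994 in floxed controls, 22977 to 26448 in Cre controls and 32814 to 45586 in knockouts. All 10 dendritic cell markers were called lower in knockouts, with sums of 119.5 to 234 in floxed controls, 141 to 314 in Cre controls and 51.9 to 58.9 in knockouts. Of the 8 monocyte markers, 4 were called higher (Ccr2, F13a1, Vcan and Ace) and 1 lower (Treml4), with log2 fold changes from -1.93 to 5.09. Their sums were 2014 to 2398 in floxed controls, 1864 to 2874 in Cre controls and 2451 to 3082 in knockouts, and the ranges overlapped. Of the 6 measured lung epithelium markers, 2 were called lower (Epcam and Sftpa1) and 0 higher, with sums of 89.4 to 249 in floxed controls, 151 to 231 in Cre controls and 55.0 to 81.9 in knockouts. Of the 2 measured lymphocyte markers, 1 was called higher and 1 lower. The part of these cell types in the members' values was not tested. In such bulk samples, fewer cells of a type and less RNA per cell cannot be told apart.

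Of the 18 glycolysis genes, 16 were called higher in knockout macrophages and 2, Eno2 and Bpgm, lower, and 6 of the 7 pentose phosphate genes were called lower by a small amount. Of the 31 measured members, 19 were called higher and 10 lower against both controls, and 2 were not called. Over all genes, 19.7% were called higher and 20.2% lower. The median log2 fold change of the members was 1.25 and that of all genes was -0.00. Glucose transport had 1 of 3 higher and 1 lower, the fructose-2,6-bisphosphate enzymes had 1 of 3 higher and 1 lower, and the remaining pentose phosphate gene was called higher. The knockout mean was at least 2 times the control mean for 16 members. All 3 knockout libraries lay above all 6 controls for 18 members, against 19.3% of all genes, and below them for 9 members, against 18.5% of all genes. The values overlapped for 4 members, Slc2a3, Pfkfb4, Pgls and Rpe.

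The members took 1.98 ± 0.0464% of the normalized reads in knockouts, 0.722 ± 0.0241% in floxed controls and 0.749 ± 0.0162% in Cre controls. The 18 glycolysis genes alone went from 0.462 ± 0.0174% in floxed and 0.474 ± 0.00867% in Cre controls to 1.71 ± 0.0378% in knockouts. The pentose phosphate enzymes went the other way, from 0.220 ± 0.00756% and 0.235 ± 0.00959% to 0.178 ± 0.00789%. For each of these sums the knockout libraries did not overlap the controls.

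Against floxed controls alone, which share the floxed alleles with the knockout, 17 members were called higher and 6 lower, with 17.5% and 16.8% of all genes called in these directions. Against Cre controls, which share the Cre transgene, 18 were higher and 10 lower, with 16.3% and 17.7% of all genes. The 2 comparisons use the same knockout libraries. Called the same way in each were 17 higher and 6 lower members, and the others called in 1 of them were called against Cre controls, 1 higher (Pfkm) and 4 lower (Pgd, Rpia, Rpe and Tkt). Cre controls against floxed controls gave 0 called members by limma, edgeR or DESeq2, and 1 member, Taldo1, had an unadjusted p under 0.05 with limma (log2 fold change 0.22, limma adjusted p = 0.577). Over all genes, 0.167% were called in that comparison. The lower counts depended on single libraries. Without knockout library 2, 3 members were called lower against floxed controls and 5 against Cre controls. The Cre count was 5 without Cre control 3 and 6 without knockout library 3. Lower calls over all genes fell as well. Against floxed controls they went from 2013 to 1586 without knockout library 2. Against Cre controls they went from 2126 to 1571 without that library, 1495 without Cre control 3 and 1535 without knockout library 3. Scaling to the library total alone gave 10 lower members against floxed controls, and the share of called genes that were higher went from 51.0% to 39.2% over the whole table.

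**Figure D1:**
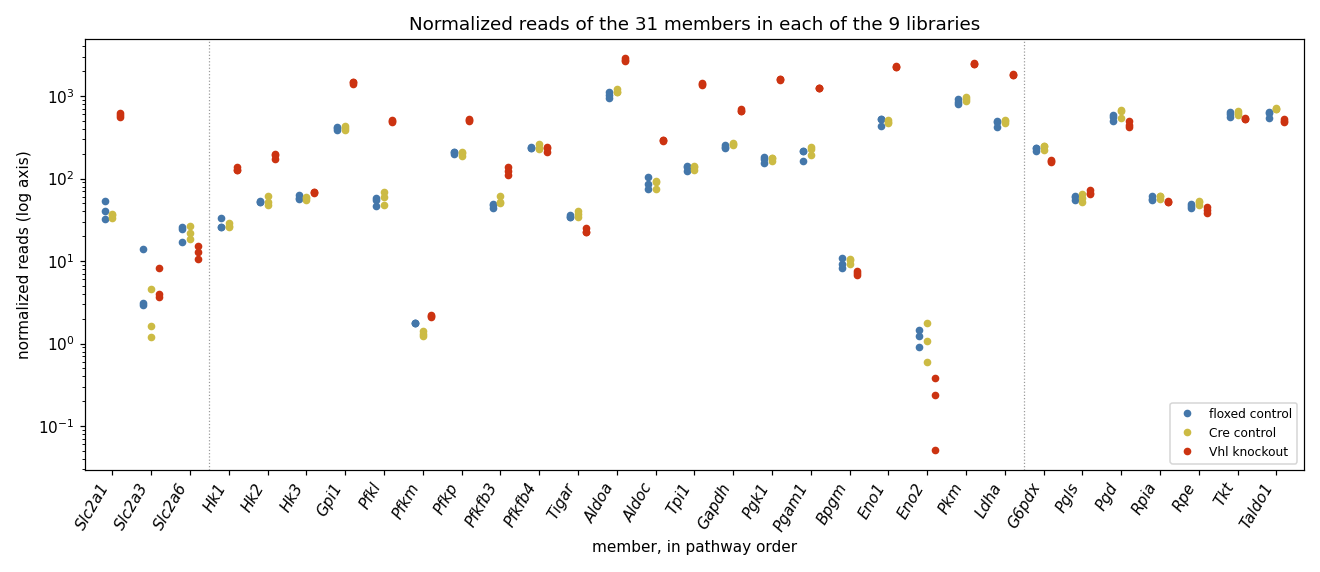
Normalized reads (log axis) of the 31 measured members in pathway order, 1 point per library, for floxed controls, Cre controls and Vhl knockouts. Dotted lines separate transport, glycolysis with the fructose-2,6-bisphosphate enzymes, and the pentose phosphate pathway. The knockout points lie above all controls for 18 members and below all controls for 9.

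The stretches before the start sites are shown for members that moved in opposite directions. The core sequence bound by hypoxia-inducible factors is ACGTG or GCGTG, and both were searched on both strands in the RefSeq windows (GRCm38.p6) from 250 bases before to 50 bases after each start. The table matched 30 of the 31 members, with 43 windows. Shown are upstream bases outside annotated exons, 5′ to 3′ on the strand of the gene, with each match in capitals. CACGTG reads the same on both strands, so it counts as 2 matches of ACGTG, and it is also the E-box bound by other factors. Pgk1, Ldha, Hk2 and Pgam1 were called higher, and Taldo1 and Rpe were called lower.
Pgk1 (chrX:106186850-106187099, plus strand): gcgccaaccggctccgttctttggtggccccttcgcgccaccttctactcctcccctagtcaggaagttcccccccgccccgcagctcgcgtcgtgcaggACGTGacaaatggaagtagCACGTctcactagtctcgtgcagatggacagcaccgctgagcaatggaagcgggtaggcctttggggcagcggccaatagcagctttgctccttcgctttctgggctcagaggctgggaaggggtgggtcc
Ldha (chr7:46845554-46845803, plus strand): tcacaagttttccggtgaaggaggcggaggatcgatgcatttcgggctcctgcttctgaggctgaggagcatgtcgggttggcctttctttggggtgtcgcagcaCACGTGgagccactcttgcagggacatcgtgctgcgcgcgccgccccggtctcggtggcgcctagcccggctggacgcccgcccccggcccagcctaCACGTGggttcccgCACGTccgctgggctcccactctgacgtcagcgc
Hk2 (chr6:82774455-82774704, minus strand): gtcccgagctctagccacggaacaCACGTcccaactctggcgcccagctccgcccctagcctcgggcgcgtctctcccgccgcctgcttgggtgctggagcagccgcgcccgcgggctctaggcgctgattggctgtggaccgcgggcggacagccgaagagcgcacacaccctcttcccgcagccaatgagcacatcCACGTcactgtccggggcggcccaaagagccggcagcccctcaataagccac
Pgam1 (chr19:41911621-41911870, plus strand): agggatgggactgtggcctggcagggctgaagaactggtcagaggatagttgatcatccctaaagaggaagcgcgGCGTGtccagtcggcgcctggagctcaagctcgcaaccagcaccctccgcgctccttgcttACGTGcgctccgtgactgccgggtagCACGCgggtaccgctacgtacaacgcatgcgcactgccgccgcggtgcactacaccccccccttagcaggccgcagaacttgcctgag
Taldo1 (chr7:141391910-141392159, plus strand): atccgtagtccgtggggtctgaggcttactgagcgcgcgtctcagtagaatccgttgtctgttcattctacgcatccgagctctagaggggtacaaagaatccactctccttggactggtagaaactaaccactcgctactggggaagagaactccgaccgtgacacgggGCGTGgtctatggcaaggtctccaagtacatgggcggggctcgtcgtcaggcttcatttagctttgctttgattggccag
Rpe (chr1:66700581-66700830, plus strand): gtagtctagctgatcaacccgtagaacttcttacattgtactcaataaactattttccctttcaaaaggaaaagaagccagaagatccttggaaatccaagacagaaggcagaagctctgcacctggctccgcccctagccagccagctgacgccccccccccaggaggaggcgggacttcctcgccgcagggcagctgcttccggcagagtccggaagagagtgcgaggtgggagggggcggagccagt
In these stretches ACGTG occurred 2 times before Pgk1, 5 times before this start of Ldha, 2 times before Hk2 and 1 time before Pgam1, which also had GCGTG 2 times. Before Taldo1 there was 1 GCGTG, and the Rpe stretch held neither. The genes shown are examples and do not stand for all members. The stretches of Tpi1 (112 bases) and Gpi1 (83 bases), both called higher, held neither. Those of Slc2a1 and Pfkl, also higher, held 0 ACGTG and 1 GCGTG each. That of Slc2a6, called lower, held 0 ACGTG and 4 GCGTG.

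Over whole windows, ACGTG was present for 13 of the 19 members called higher (68.4%) and for 1 of the 10 called lower (10.0%), and 21.8% of all 27025 genes of the table had it. Counted by window, the shares were 51.6%, 9.09% and 19.6%. GCGTG was present for 12 of 19 higher members (63.2%) and 6 of 10 lower members (60%), and for 35.2% of all genes. The windows of higher and lower members had a median GC content of 61.3% and 60.3% and a median of 20 CG pairs each, against 52.7% and 7 pairs in all windows. The part of base composition in these shares was not tested. A match is a description of the letters and neither a binding site nor a cause.

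Glucose entry differed by transporter. Slc2a1 (ENSMUSG00000028645, chr4:119108711-119137983) encodes GLUT1, the widely expressed basal glucose transporter. It stood at 54.0, 40.7 and 31.9 normalized reads in floxed controls, 33.2, 37.4 and 36.5 in Cre controls and 583, 563 and 616 in knockouts. All knockout libraries were above all controls, and the mean was 15.1 times the control mean (log2 fold change 3.90, SE 0.129, adjusted p = 1.50e-08 by limma), the largest log2 fold change of the 31 members. Slc2a6, which encodes GLUT6, a transporter of lysosomal membranes in macrophages, stood at 24.8, 26.1 and 17.3 normalized reads in floxed controls, 18.6, 26.4 and 22.0 in Cre controls and 12.998, 15.3 and 10.7 in knockouts. It was lower in knockouts without overlap (log2 fold change -0.75, SE 0.157, adjusted p = 0.00393 by limma). Slc2a3 encodes GLUT3, a high-affinity transporter of neurons and leukocytes, and stood at 14.1, 3.12 and 2.93 normalized reads in floxed controls, 4.63, 1.62 and 1.19 in Cre controls and 8.28, 3.68 and 4.04 in knockouts. The groups overlapped and it was not called (log2 fold change 0.43, SE 0.462, adjusted p = 0.495 by limma).

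Library 1 of each genotype had the highest Slc2a3 value of its group. The 7 measured neutrophil markers were highest in the same libraries, with summed levels of 765, 224 and 213 in floxed controls, 341, 94.5 and 104 in Cre controls and 431, 144 and 143 in knockouts. Of these markers 1 was called higher in knockouts and 0 lower, and none was at 0 in any library. Without library 1 of each genotype, an alternative added after the values were seen, Slc2a3 was called higher (log2 fold change 0.64, limma adjusted p = 0.00963). The part of neutrophils in the Slc2a3 values was not tested.

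**Figure D2:**
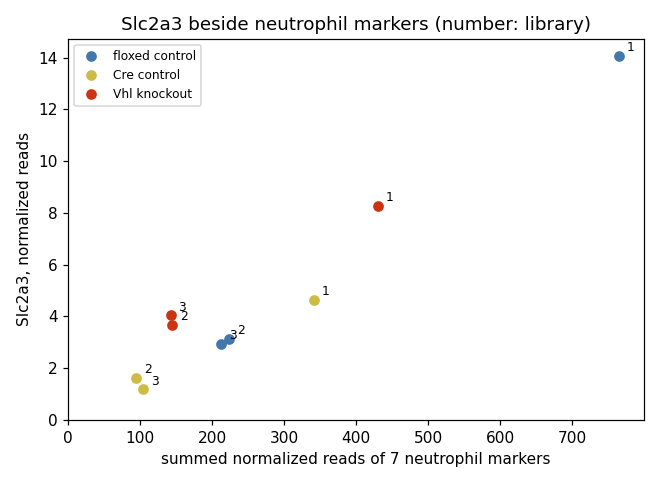
Slc2a3 in normalized reads against the summed normalized reads of 7 neutrophil markers, 1 point per library, with the library number beside it. Library 1 of each genotype is highest on both axes within its group.

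At the first phosphorylation of glucose, all 3 hexokinases among the members were called higher. Hk2, the inducible hexokinase that binds mitochondria, stood at 52.9, 52.1 and 52.3 normalized reads in floxed controls, 47.4, 51.3 and 62.2 in Cre controls and 172, 197 and 194 in knockouts. All knockout values were above all controls (log2 fold change 1.805, SE 0.0822, adjusted p = 1.46e-07 by limma). Hk1, the housekeeping hexokinase, stood at 33.5, 25.6 and 25.7 normalized reads in floxed controls, 26.1, 26.9 and 29.3 in Cre controls and 126, 128 and 137 in knockouts (log2 fold change 2.19, SE 0.0878, adjusted p = 6.02e-08 by limma). Hk3, a hexokinase of myeloid cells, stood at 62.6, 58.6 and 56.1 normalized reads in floxed controls, 54.5, 57.7 and 59.1 in Cre controls and 69.4, 67.4 and 68.7 in knockouts, a mean of 1.18 times that of controls (log2 fold change 0.24, SE 0.0520, adjusted p = 0.00522 by limma). The groups did not overlap for any of the 3, and Hk3 overlaps a measured gene on the other strand, Unc5a, by 34 exonic bases. Adpgk, another kinase of this step measured outside the members, was called lower (log2 fold change -0.45, limma adjusted p = 0.00101). It stood at 31.3 ± 3.04 normalized reads in controls and 22.5 ± 0.677 in knockouts, without overlap.

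Divided by gene length, the mix of hexokinases changed. Per kilobase of the union of annotated exons, Hk3 held 56.5 ± 1.45% of the 3 hexokinases in controls and 28.5 ± 1.48% in knockouts. Hk2 went from 31.8 ± 1.74% to 48.1 ± 1.85% and Hk1 from 11.7 ± 0.820% to 23.4 ± 0.671%. These shares depend on the length used. With the length of the APPRIS principal transcript, added after the values were seen, Hk1 and Hk2 held 38.01% and 38.1% in knockouts and Hk3 51.7% in controls, and with the median transcript length Hk1 led in every genotype. With that length the share of Hk2 did not rise, at 33.7 ± 2.08% in controls and 33.5 ± 1.42% in knockouts, while Hk1 held 44.9 ± 2.17% and 59.4 ± 1.19%. Shares are descriptions and were not tested.

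**Figure D3:**
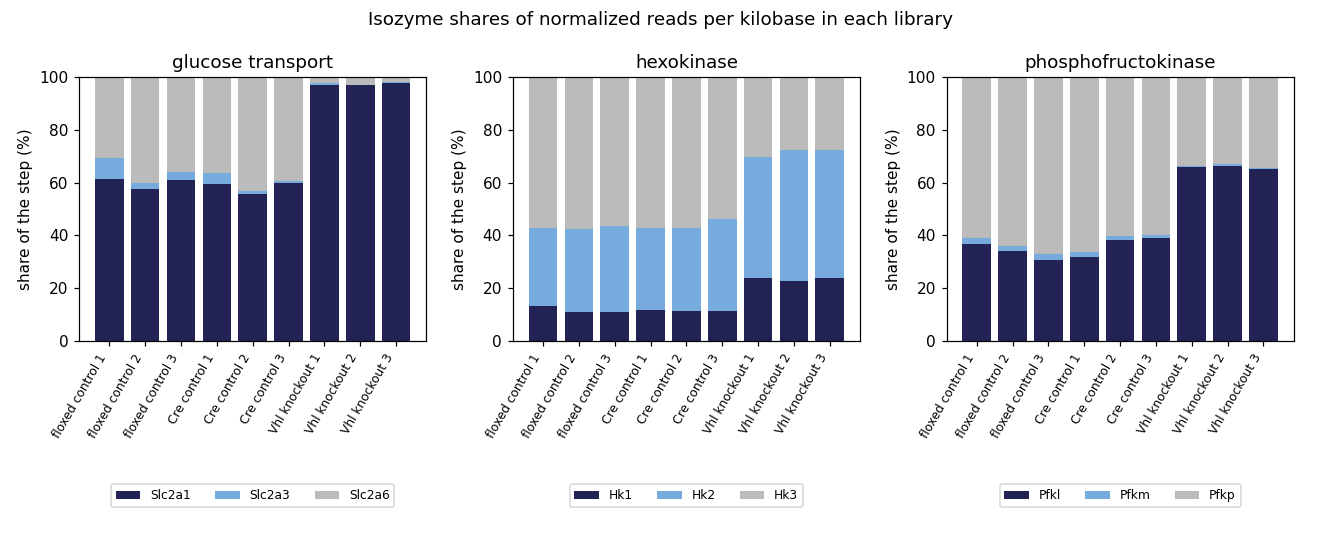
Share (%) of each isozyme in the normalized reads per kilobase of exon union of its step, stacked by library, for glucose transporters, hexokinases and phosphofructokinases. Slc2a1 holds 96.8 to 97.8% of the sum of the member transporters in knockouts, against 55.8 to 61.4% in controls. The Hk3 and Pfkp shares are smaller in all 3 knockout libraries than in any control. Only members are counted, so the measured transporters Slc2a8 and Slc2a9 are left out. Per kilobase of exon union these stand at 6.27 and 2.66 normalized reads in controls, beside 11.1 for Slc2a1, and at 8.04 and 2.69 in knockouts, beside 168.

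Gpi1 encodes the isomerase that makes fructose-6-phosphate, and it stood at 413, 424 and 389.8 normalized reads in floxed controls, 411, 386 and 435 in Cre controls and 1472, 1467 and 1417 in knockouts (log2 fold change 1.82, SE 0.0562, adjusted p = 1.13e-08 by limma). The knockout mean was 3.54 times the control mean, without overlap. The next step, phosphofructokinase, is the main point of control of glycolysis. Pfkl, the liver-type chain (chr10:77986947-78010083), stood at 58.9, 55.5 and 47.1 normalized reads in floxed controls, 48.2, 59.6 and 68.7 in Cre controls and 491, 512 and 503 in knockouts. Its knockout mean was 8.91 times that of controls (log2 fold change 3.14, SE 0.104, adjusted p = 1.50e-08 by limma). Pfkp, the platelet-type chain, stood at 196, 209 and 208 normalized reads in floxed controls, 203, 188 and 212 in Cre controls and 502, 513 and 533 in knockouts (log2 fold change 1.35, SE 0.0527, adjusted p = 5.57e-08 by limma). Both were above all controls in every knockout library, and Pfkp shares 748 exonic bases with Pitrm1 on the other strand.

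Pfkm, the muscle-type chain, was close to the lower limit of the table at 1.79, 1.79 and 1.78 normalized reads in floxed controls, 1.44, 1.31 and 1.24 in Cre controls and 2.19, 2.09 and 2.24 in knockouts, from 22 to 56 reads per library. It was called against both controls (log2 fold change 0.32, SE 0.108, adjusted p = 0.0402 by limma) and against Cre controls (log2 fold change 0.45, limma adjusted p = 0.0199). Against floxed controls it was not called (log2 fold change 0.19, limma adjusted p = 0.278), and 13 of 16 other settings ended its call against both. Per kilobase of exon union, Pfkp held 63.03 ± 3.27% of the step in controls and 33.7 ± 0.621% in knockouts, and Pfkl went from 35.02 ± 3.49% to 65.7 ± 0.636%. With principal transcripts Pfkl reached 51.8% and Pfkp 47.9% in knockouts, and without division by length Pfkp led in every genotype. The ratio of Pfkl to Pfkp reads, whose level depends on the 2 gene lengths while its change does not, was 0.264 ± 0.0371 in floxed controls, 0.293 ± 0.0482 in Cre controls and 0.972 ± 0.0272 in knockouts.

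Fructose-2,6-bisphosphate is the strongest activator of phosphofructokinase, and its 3 enzymes among the members went different ways. Pfkfb3, whose product mainly makes it, stood at 49.4, 44.4 and 48.2 normalized reads in floxed controls, 50.9, 52.2 and 61.7 in Cre controls and 109, 138 and 122 in knockouts, and all knockouts were above all controls (log2 fold change 1.25, SE 0.0859, adjusted p = 2.71e-06 by limma). Pfkfb4, another bifunctional kinase and phosphatase, stood at 242, 238 and 238 normalized reads in floxed controls, 264, 227 and 234 in Cre controls and 243, 234 and 209 in knockouts with overlapping groups (log2 fold change -0.07, SE 0.0645, adjusted p = 0.403 by limma). Tigar, a phosphatase that lowers fructose-2,6-bisphosphate, stood at 35.8, 34.6 and 33.9 normalized reads in floxed controls, 34.5, 41.0 and 36.8 in Cre controls and 25.5, 22.8 and 22.5 in knockouts. Its knockout libraries were all below all controls (log2 fold change -0.59, SE 0.0698, adjusted p = 1.14e-04 by limma). The synthesizing enzyme gene Pfkfb3 was higher and the degrading enzyme gene Tigar lower in the same libraries. Pfkfb1 and Pfkfb2, measured outside the members, were not called (log2 fold changes -0.36 and 0.09, limma adjusted p = 0.0753 and 0.627). Pfkfb1 stood at 2.17 ± 0.523 normalized reads in controls and 1.43 ± 0.0429 in knockouts, without overlap. Pfkfb2 stood at 11.1 ± 2.27 and 11.8 ± 1.59, with overlap.

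Aldolase splits fructose-1,6-bisphosphate into 2 triose phosphates. Aldoa, the main aldolase outside liver, stood at 1044, 1119 and 939 normalized reads in floxed controls, 1112, 1114 and 1219 in Cre controls and 2859, 2776 and 2694 in knockouts (log2 fold change 1.35, SE 0.0726, adjusted p = 4.57e-07 by limma). Aldoc, the brain-type aldolase, stood at 103, 87.1 and 74.7 normalized reads in floxed controls, 75.5, 89.7 and 94.6 in Cre controls and 282, 290.1 and 291 in knockouts (log2 fold change 1.72, SE 0.0991, adjusted p = 7.48e-07 by limma). Neither overlapped between knockouts and controls, and the Aldoc share of the step per kilobase of exon union was 6.69 ± 0.783% in controls and 8.47 ± 0.342% in knockouts.

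Tpi1 (ENSMUSG00000023456, chr6:124810586-124814296) encodes the isomerase that interconverts the triose phosphates. It stood at 141, 139 and 124 normalized reads in floxed controls, 138, 127 and 143 in Cre controls and 1432, 1394 and 1357 in knockouts, and the knockout mean was 10.3 times the control mean (log2 fold change 3.36, SE 0.0591, adjusted p = 2.43e-10 by limma). Gapdh, which oxidizes glyceraldehyde-3-phosphate and is often used as a reference gene, stood at 238, 255 and 235 normalized reads in floxed controls, 256, 268 and 262 in Cre controls and 697, 668 and 659 in knockouts (log2 fold change 1.42, SE 0.0477, adjusted p = 1.66e-08 by limma). Pgk1 (ENSMUSG00000062070, chrX:106187100-106203699) encodes the first ATP-forming enzyme of the pathway. It stood at 183, 173 and 155 normalized reads in floxed controls, 162, 178 and 176 in Cre controls and 1625, 1583 and 1595 in knockouts, and the knockout mean was 9.37 times that of controls (log2 fold change 3.22, SE 0.0607, adjusted p = 3.96e-10 by limma). All 3 genes were higher in every knockout library than in any control.

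Pgam1, the mutase that moves the phosphate of 3-phosphoglycerate, stood at 219, 216 and 163 normalized reads in floxed controls, 192, 242 and 230.3 in Cre controls and 1265, 1270.1 and 1243 in knockouts (log2 fold change 2.59, SE 0.103, adjusted p = 5.96e-08 by limma). Floxed control 3 was the lowest of the controls and the knockouts were far above all of them. Bpgm makes 2,3-bisphosphoglycerate, the regulator of hemoglobin in red cells, in a side loop of this step. It stood at 10.9, 9.16 and 8.32 normalized reads in floxed controls, 10.2, 9.21 and 10.5 in Cre controls and 7.55, 6.74 and 7.08 in knockouts and was lower in all knockouts (log2 fold change -0.40, SE 0.0967, adjusted p = 0.00886 by limma). Of the 4 measured red cell markers, 0 were called, and their sums were 13.2 to 92.4 in floxed controls, 15.2 to 61.4 in Cre controls and 0.306 to 37.7 in knockouts. The part of red cells in the Bpgm values was not tested.

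Eno1, the enolase of most tissues, stood at 521, 521 and 431 normalized reads in floxed controls, 485, 476 and 515 in Cre controls and 2230.4, 2342 and 2258 in knockouts (log2 fold change 2.21, SE 0.0720, adjusted p = 1.40e-08 by limma). Eno2, the neuronal enolase, had few reads and stood at 1.47, 0.921 and 1.25 normalized reads in floxed controls, 0.602, 1.78 and 1.07 in Cre controls and 0.386, 0.0511 and 0.240 in knockouts. In reads, that was 13 to 34 per control library and 9, 1 and 6 in the knockouts. It was called lower (log2 fold change -0.82, SE 0.196, adjusted p = 0.00806 by limma), and the added 1 in the logarithm understates this change. These 2 enolases moved in opposite directions. Another enolase, Eno3, measured outside the members, stood at 4.55 ± 0.762 normalized reads in controls and 4.43 ± 0.275 in knockouts. It overlapped and was not called (log2 fold change -0.02, limma adjusted p = 0.912). Per kilobase of principal transcript, Eno2 held 0.175 ± 0.0650% of the sum of Eno1 and Eno2 in controls and 0.00728 ± 0.00550% in knockouts.

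Pkm encodes the pyruvate kinase of most tissues in both of its splice forms, which gene-level values cannot tell apart. It stood at 858, 911 and 806 normalized reads in floxed controls, 875, 965 and 928 in Cre controls and 2440.3, 2495 and 2481 in knockouts (log2 fold change 1.47, SE 0.0627, adjusted p = 9.55e-08 by limma). Ldha (ENSMUSG00000063229, chr7:46841475-46855627) encodes the lactate dehydrogenase chain that favours lactate formation and stood at 481, 505 and 420.1 normalized reads in floxed controls, 505, 469.9 and 509 in Cre controls and 1865, 1826 and 1812 in knockouts (log2 fold change 1.93, SE 0.0668, adjusted p = 1.97e-08 by limma). Both were above all controls in every knockout library, by factors of 2.78 and 3.81 in the means.

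Levels of different steps were compared per kilobase of principal transcript, with the isozymes among the members summed. Hexokinase was the lowest of the 11 steps in each genotype group, at 34.9 ± 2.13 normalized reads per kilobase in controls and 89.2 ± 3.49 in knockouts, and aldolase the highest, at 754 ± 63.1 and 1941 ± 53.0. Phosphofructokinase was second lowest, at 64.5 ± 3.01 in controls and 259.8 ± 5.61 in knockouts. Triose phosphate isomerase, at 84.2 ± 4.83, and phosphoglycerate kinase, at 93.7 ± 5.74, followed in controls. Those 2 stood at 868 ± 23.4 and 877 ± 11.9 in knockouts, above glucose-6-phosphate isomerase (503 ± 10.5), glyceraldehyde-3-phosphate dehydrogenase (475 ± 13.7) and phosphoglycerate mutase (709.5 ± 8.15). Outside hexokinase and phosphofructokinase, the highest of the other 9 steps was 8.31 to 9.75 times the lowest in each control library and 4.06 to 4.12 times in each knockout library. With exon-union lengths these ratios were 7.63 to 8.91 and 6.34 to 6.45, so the size of the narrowing depends on the length used. It also depends on leaving out those 2 steps. Over all 11 steps, the ratio of group means was 21.6 in controls and 21.8 in knockouts, and 16.7 and 15.9 with exon-union lengths. In knockouts the lowest of the 9 was glyceraldehyde-3-phosphate dehydrogenase, whose level is uncertain for the reason given below. The order of steps also depends in part on the length used. With exon-union lengths phosphofructokinase (24.03 ± 1.34) lay below hexokinase (27.9 ± 1.61) in controls. In knockouts triose phosphate isomerase (507 ± 13.6) then lay below phosphoglycerate mutase (635 ± 7.30).

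**Figure D4:**
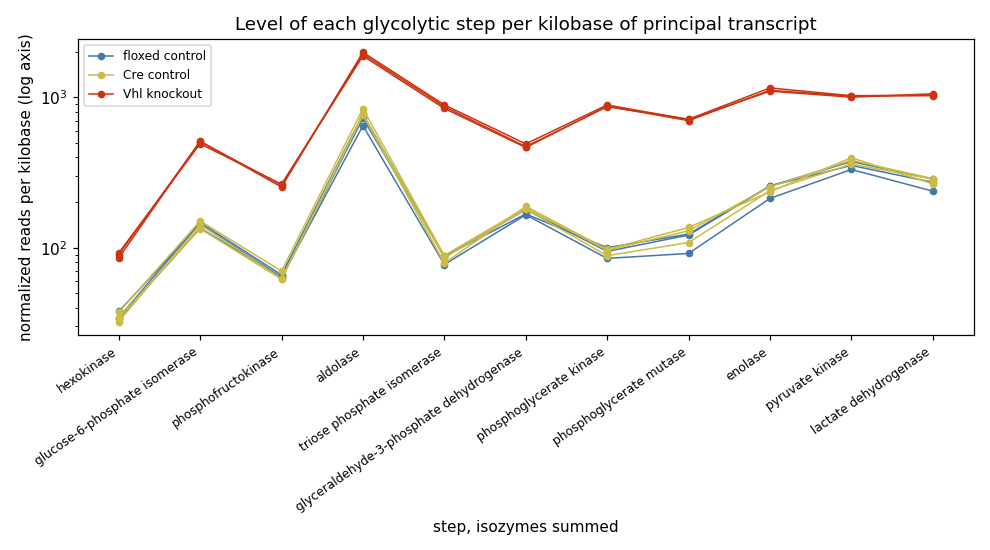
Normalized reads per kilobase of principal transcript (log axis) at 11 steps of glycolysis, isozymes among the members summed, 1 line per library. The knockout lines lie above the control lines at every step, and aldolase is the highest and hexokinase the lowest step in each group.

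Several of these genes have near-identical copies in the genome, and their levels are uncertain to that extent. Of the 61-base stretches of the principal transcript, the length of 1 read, 81.5% in Gapdh also occur in transcripts of other GENCODE genes, 163 genes in all, of which 156 are pseudogenes. The shares were 69.2% for Eno1, 67.8% for Pgk1, 41.1% for Pgam1 and 27.4% for Pkm. For the other members whose mean rose at least 2 times they were 19.9% for Gpi1, 16.8% for Pfkp, 10.1% for Ldha, 6.89% for Aldoa, 4.59% for Tpi1, 1.41% for Slc2a1 and 0 for Hk1, Hk2, Pfkl, Pfkfb3 and Aldoc. In all, 16 of the 31 members shared no such stretch. Tpi1, Gapdh and Pfkm also overlap measured genes on the other strand, by 34, 68 and 18 exonic bases (Spsb2, Iffo1 and Senp1), whose reads cannot be told apart without a known strand setting.

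The oxidative arm of the pentose phosphate pathway begins with G6pdx, the enzyme that commits glucose-6-phosphate and makes NADPH. It stood at 215, 238 and 233 normalized reads in floxed controls, 219.7, 250.2 and 251 in Cre controls and 163, 166 and 159.7 in knockouts. Every knockout library was below every control, at 69.6% of the control mean (log2 fold change -0.52, SE 0.0582, adjusted p = 8.21e-05 by limma). Its exons share 418 bases with Ikbkg on the other strand. Beside Gpi1, which acts on the same substrate, the ratio of G6pdx to Gpi1 reads went from 0.559 ± 0.0384 in floxed and 0.586 ± 0.0572 in Cre controls to 0.112 ± 0.00124 in knockouts. Pgls, the lactonase of the second step, stood at 59.5, 60.8 and 55.7 normalized reads in floxed controls, 65.0, 51.6 and 57.8 in Cre controls and 73.5, 66.9 and 64.3 in knockouts. It was called higher against both controls (log2 fold change 0.22, SE 0.0762, adjusted p = 0.0405 by limma), but the groups overlapped at knockout library 3, and it was not called against floxed controls (limma adjusted p = 0.0879) or Cre controls (limma adjusted p = 0.0674). Pgls also shares 776 exonic bases with Fam129c on the same strand. Pgd, which makes the second NADPH, stood at 556, 585 and 503 normalized reads in floxed controls, 542, 676 and 666 in Cre controls and 446, 496 and 420.3 in knockouts (log2 fold change -0.37, SE 0.0882, adjusted p = 0.00814 by limma). All its knockout values were below all controls, and it was called against Cre controls (limma adjusted p = 0.00624) and not against floxed controls (limma adjusted p = 0.0648).

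In the non-oxidative arm all 4 members were called lower against both controls. Taldo1, transaldolase, stood at 647, 631 and 535 normalized reads in floxed controls, 699, 691 and 711 in Cre controls and 521, 498 and 486 in knockouts (log2 fold change -0.37, SE 0.0666, adjusted p = 0.00153 by limma), and it was also called against each control alone. Tkt, transketolase, stood at 601, 647 and 553 normalized reads in floxed controls, 591, 625 and 658 in Cre controls and 549, 534 and 521 in knockouts (log2 fold change -0.19, SE 0.0627, adjusted p = 0.0328 by limma). Rpia, which makes ribose-5-phosphate, stood at 57.3, 55.4 and 60.6 normalized reads in floxed controls, 60.7, 56.8 and 61.1 in Cre controls and 53.3, 52.2 and 52.5 in knockouts (log2 fold change -0.15, SE 0.0503, adjusted p = 0.0352 by limma). The knockout libraries of these 3 lay below all controls by narrow gaps. Rpe, the epimerase, stood at 49.5, 46.3 and 44.2 normalized reads in floxed controls, 47.5, 52.3 and 54.0 in Cre controls and 45.4, 37.8 and 41.6 in knockouts (log2 fold change -0.23, SE 0.0717, adjusted p = 0.0279 by limma), and knockout library 1 lay within the range of floxed controls. It shares 558 exonic bases with Kansl1l on the other strand.

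Tkt, Rpia and Rpe were called against Cre controls and not against floxed controls, with limma adjusted p of 0.0377, 0.0430 and 0.0201 against the former and of 0.109, 0.109 and 0.156 against the latter. Cre and floxed controls themselves did not differ by a call at these genes, so the knockout differences were not shown to depend on the control. Against both controls, Tkt and Rpia each lost their call in 7 of 17 other settings, Rpe in 4 and Pgls in 11, while G6pdx, Pgd and Taldo1 kept theirs in all 17.

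**Figure D5:**
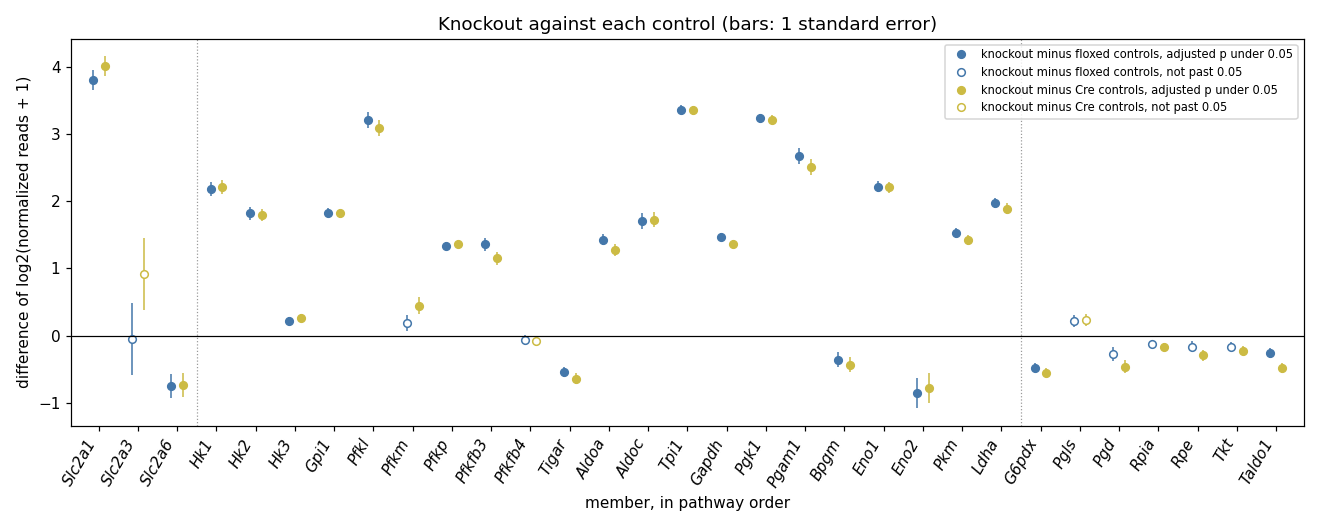
Log2 fold change of each member in pathway order, knockout minus floxed controls and knockout minus Cre controls, with bars of 1 standard error. Filled points passed a limma adjusted p under 0.05. The values reach 3.80 and 4.004 for Slc2a1 and lie between -0.55 and 0.23 for the 7 pentose phosphate enzymes.

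Genes next to these pathways were followed in 4 lists, of which 43 of 67 genes were measured. Against both controls 10 were called higher and 13 lower, with a median log2 fold change of -0.03. Over all genes, 19.7% were called higher and 20.2% lower, and each list count below is to be read beside these shares. Of the 9 pentose phosphate neighbours, 0 were higher and 5 lower, H6pd, Rbks, Prps1, Prps2 and Prpsap2. H6pd is the glucose-6-phosphate dehydrogenase of the endoplasmic reticulum, and Prps1 and Prps2 turn ribose-5-phosphate into the precursor of nucleotides. Their log2 fold changes were -0.72 for H6pd, -0.41 for Prps1 and -0.35 for Prps2.

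Of the 21 genes of branches off glycolysis, 6 were higher and 6 lower, beside 19.7% and 20.2% of all genes. Pgm1, the phosphoglucomutase that leads glucose-6-phosphate toward glycogen, stood at 25.9, 25.9 and 24.0 normalized reads in floxed controls, 27.8, 26.8 and 27.1 in Cre controls and 122, 121 and 121 in knockouts (log2 fold change 2.17, SE 0.0484, adjusted p = 1.13e-09 by limma). Slc37a4, the transporter of glucose-6-phosphate into the endoplasmic reticulum, stood at 14.6, 13.6 and 15.1 normalized reads in floxed controls, 17.8, 14.3 and 15.3 in Cre controls and 31.7, 35.3 and 32.8 in knockouts (log2 fold change 1.09, SE 0.0798, adjusted p = 4.35e-06 by limma). Phgdh and Psat1 catalyse the first steps of serine synthesis from 3-phosphoglycerate, and both were lower. Phgdh stood at 231, 246 and 198 normalized reads in floxed controls, 203, 199 and 200.4 in Cre controls and 103, 73.4 and 64.7 in knockouts (log2 fold change -1.42, SE 0.127, adjusted p = 1.71e-05 by limma), and Psat1 at 25.9, 33.9 and 31.1 normalized reads in floxed controls, 26.0, 27.6 and 28.9 in Cre controls and 12.8, 13.6 and 14.6 in knockouts (log2 fold change -1.02, SE 0.0881, adjusted p = 1.31e-05 by limma). None of these 4 overlapped between knockouts and controls.

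Among the 9 measured other transporters and isozymes, 3 were higher and 1, Adpgk, lower, beside 19.7% and 20.2% of all genes. Of the 4 regulators of glucose uptake and carbohydrate response, 1 was higher and 1 lower. The higher one, Txnip, encodes a protein that lowers glucose uptake, and its level was 900.3 ± 110.5 normalized reads in controls and 1581 ± 131 in knockouts (log2 fold change 0.82, limma adjusted p = 2.38e-04; named after its values were seen, as were H6pd, Rbks, Prps1, Prps2 and Prpsap2).

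All values are RNA levels, and enzyme amounts and metabolite flow were not measured here. Within a genotype the members were reproducible between pools, with a median coefficient of variation of 7.58% in floxed controls, 6.65% in Cre controls and 3.05% in knockouts. The spread was widest for Slc2a3 in floxed and Cre controls, at 95.1% and 75.6%, and for Eno2 in knockouts, at 74.4%.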

How the data were processed

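Poly(A) RNA of alveolar macrophages was sequenced as single reads of 61 bases, from samples with RNA integrity above 8, per the labels' protocols. The submitters' processing notes name RSEM 1.2.3, which estimates reads per gene, cutadapt 1.3, CASAVA 1.8.2 and build GRCm38. Neither the strand setting nor the annotation is given there. The deposited file is 1 table of 12003 genes by 9 libraries, and each signal value came out as a whole number of reads (100% of values within 0.01 read) times 1 factor per library. The factors equal library size and the edgeR factors known as TMM, as recomputed here, so changes shared by all genes cannot be seen. Every gene had at least 0.962 in 3 libraries, so genes below that are not analysed here. No column was left out (0 columns).

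Groups came from the genotype label. The main test was limma 3.58.1 in R 4.3.3 on log2(value + 1), empirical Bayes with trend, 1 mean per genotype, two-sided, adjusted over all genes. It was tried on simulated data in which few genes changed and all genes had the same dispersion. Many genes were called in these data, so that simulation does not give the error rate here. Alternatives were a pseudocount of 0.25, a filter (at least 5 in 3 libraries), edgeR 4.0.16 and DESeq2 1.42.0 on the recovered reads, 2 other scalings, a replicate block, and leaving out libraries. Names, lengths and positions came from GENCODE release M21. Every measured member is named, with full statistics for the leading isozyme of each step and for members called lower, changed by at least 1 on the log2 scale or differing between controls. Slc2a8, Slc2a9, Adpgk, Pfkfb1, Pfkfb2 and Eno3 are named as neighbours of the same steps, after their values were seen. Other neighbours are named where called with a change of at least 1. One neighbour that this rule takes is not reported here. The members and lists were chosen with earlier results of these data known.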

Additional observations from a re-analysis of the deposited data

How the results depend on the processing

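Of the 31 members, 25 had the same call against both controls under every alternative that could be run for them, 5 lost it under at least 1 (Pfkm, Pgls, Rpia, Rpe and Tkt), 1 gained it (Slc2a3) and 0 changed direction with a call. Higher members numbered 17 to 19 and lower ones 7 to 10 against both controls. Lower members against floxed controls numbered 10 with scaling to the library total alone and 3 to 8 with 1 library left out. Lower members against Cre controls numbered 5 to 10 with 1 library left out. Over all genes, lower calls with 1 library left out numbered 1488 to 2024 against floxed controls and 1495 to 2297 against Cre controls. The cause of these shifts was not tested. Of 5 isozyme families, 2 changed their leading isozyme, and 1 did with median transcript length or with no division by length. Replicate numbers were not taken as pairs, as the labels give them no shared source. Deviations from the group mean were correlated between libraries of different genotypes. For same-numbered libraries the correlations ran from -0.09 to 0.52, 6 of 9 above 0.1. Among libraries 2 and 3, same-numbered pairs ran from -0.09 to 0.22 and differently numbered pairs from 0.11 to 0.38. Correlations among the libraries numbered 1 ran from 0.20 to 0.52, so these libraries deviated together. Their 12 correlations with other numbers were all negative (-0.44 to -0.03). Deviations sum to 0 within a group, so the negative values follow largely from the positive ones and add no separate evidence. With the replicate number as a block, 18 members were higher and 10 lower against both controls, 17 and 7 against floxed controls, and 20 and 9 against Cre controls. Under the low-value filter, Slc2a3, Pfkm and Eno2 had no value. Depth limits Eno2 and Pfkm.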
